A study of Mus musculus with 24 samples.

Results

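Matrix proteases, their inhibitors and 2 matrix glycoproteins were followed through the responses of mouse macrophages to sphingomyelin d18:1/14:0 (S14) and to lipopolysaccharide (LPS). The set holds 10 of the 55401 genes in the count table, taken by symbol: the matrix metalloproteinases Mmp8, Mmp9, Mmp12, Mmp13 and Mmp14, the aggrecanase Adamts4, the inhibitors Timp1 and Timp2, and the matrix glycoproteins Fn1 and Thbs1. The members carried enough reads for a test in 9 cases. Fn1 did not, and is given as reads.

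Bone marrow cells of C57BL/6J wild-type mice were grown into macrophages in medium conditioned by L929 cells, a mouse fibroblast line whose supernatant supplies the macrophage growth factor M-CSF, and were plated on day 6. They then received 30 µM S14, a sphingomyelin species that carries a myristoyl chain, or 100 ng/mL LPS, a bacterial cell wall component sensed by Toll-like receptor 4, or were left untreated. Cells were harvested after 18 h or 3 h. That makes 6 groups of 4 libraries each: S14 at 18 h, LPS at 18 h, untreated at 18 h, S14 at 3 h, LPS at 3 h and untreated at 3 h. RNA was read from the 3′ end of polyadenylated transcripts, so a count stands for 1 read of a gene's last part and levels are compared here between groups, not between genes. The labels do not say whether the 4 libraries of a group come from separate mice, so the p-values measure the spread between these libraries, which may be technical.

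Matrix metalloproteinases are zinc-dependent endopeptidases that are made as inactive precursors and cut collagens, elastin and other extracellular substrates once their propeptide is removed. Tissue inhibitors of metalloproteinases (Timps) bind the active site and block it. Macrophages are known both as a source of such enzymes, with Mmp12 named macrophage elastase for them, and as cells that use them to move through tissue and to release bound cytokines.

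Libraries held 3334182 to 6350251 reads on 13405 to 15505 genes. Of the 8 macrophage markers listed, all were read in every group, with a summed level of 14900 to 23100 CPM (reads of a gene scaled to equal library totals) in LPS at 18 h, 31500 to 45500 CPM in untreated at 18 h and 19400 to 32600 CPM elsewhere. Replicate 4 of untreated at 18 h stood apart from its group: its counts differed from those of the other 3 libraries with a chi-square of 22.7 to 23.5 per degree of freedom, against 4.59 to 5.02 among those 3. Levels are CPM of the library total after scaling by the trimmed mean of M-values (TMM), which centres the comparisons on most genes. LPS at 3 h against untreated at 3 h still had a median log2 fold change of -0.11 over all 11717 tested genes, and the other comparisons lay between -0.04 and 0.07. Scaling to spike-in reads instead moved the median of all genes by -0.97 for S14 and by -0.64 for LPS at 18 h, and by 0.11 for S14 and by 0.34 for LPS at 3 h. With untreated replicate 4 at 18 h left out as well, the shifts at 18 h were -0.48 for S14 and -0.16 for LPS. Spike-in reads made up 0.0134% of that library and 0.0334% to 0.0419% of the other untreated libraries at 18 h. Every direction below is therefore relative to the typical gene. Fewer cells that make a transcript and less of it per cell cannot be told apart in these bulk libraries.

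LPS moved most of the set and S14 a smaller part of it. Calls rest on an adjusted p under 0.05 in the quasi-likelihood test of edgeR, adjusted over all genes. At 18 h, S14 had 4 of the 9 tested members higher than untreated cells (Mmp8, Mmp9, Mmp14 and Timp1) and 5 not called, where 24.3% of all tested genes were called, 12.6% as higher and 11.6% as lower. LPS at 18 h had 5 higher (Mmp8, Mmp13, Mmp14, Timp1 and Thbs1), 2 lower (Mmp12 and Timp2) and 2 not called, against 55.6% called among all genes, 27.3% as higher and 28.3% as lower. At 3 h, S14 had 3 higher (Mmp13, Mmp14 and Adamts4) and 6 not called, where 15.2% of all genes were called, 9.05% as higher and 6.2% as lower. LPS at 3 h had 5 higher (Mmp12, Mmp13, Mmp14, Timp1 and Adamts4), 1 lower (Timp2) and 3 not called, with 55.5% of all genes called, 25.3% as higher and 30.2% as lower. The 7 and 6 members called with LPS stand in a background in which most genes were called, so their number says little and the sizes of the changes follow below. The median log2 fold change over the tested members was 0.55 for S14 and 1.43 for LPS at 18 h, with medians over all genes of -0.02 and -0.04. At 3 h it was 0.77 for S14 and 0.69 for LPS, with medians over all genes of -0.03 and -0.11.

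**Figure D1:**
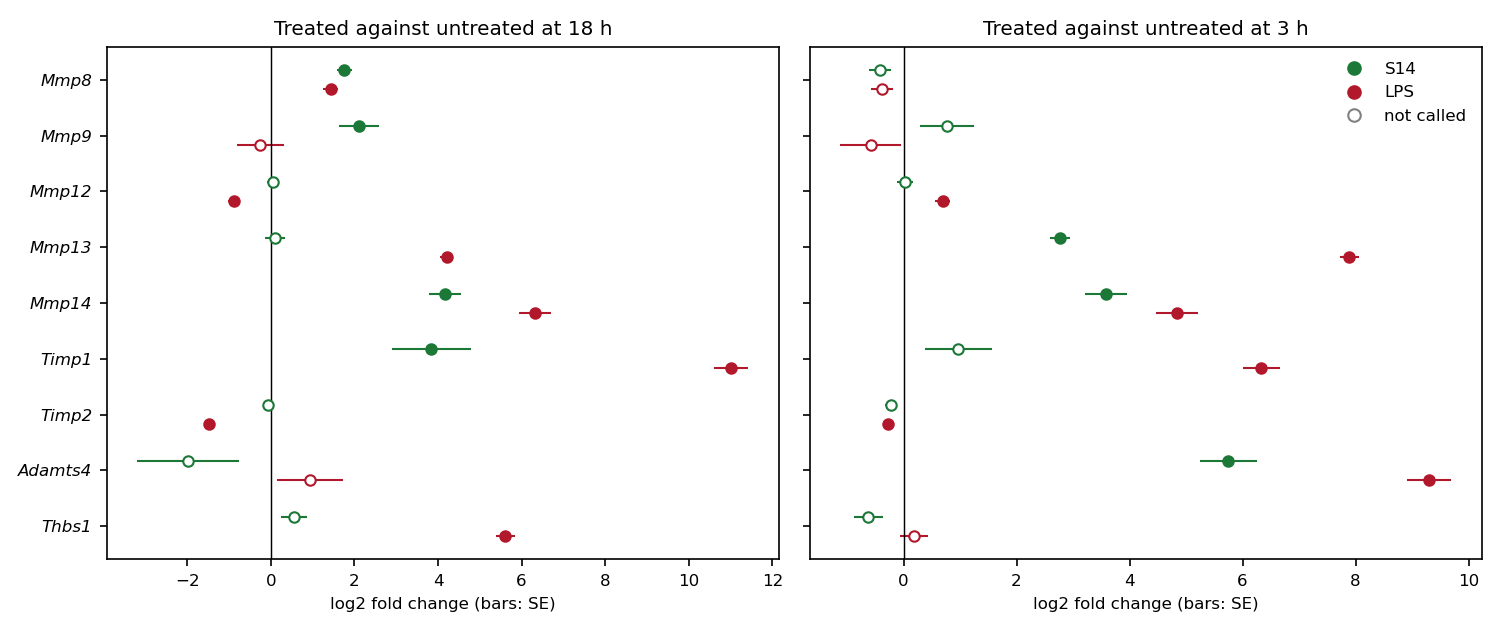
Log2 fold change against untreated cells of the same time for the 9 tested members, with bars of 1 standard error (SE), S14 in green, LPS in red and open circles where the adjusted p was not under 0.05; untreated Timp1 at 18 h and Adamts4 at 3 h rest on 2 and 3 reads, so their fitted values there depend on the prior count. Mmp14 is the 1 member called in all 4 comparisons, and Mmp13 under LPS has 4.21 at 18 h and 7.89 at 3 h.

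The collagenase Mmp13 was highest under LPS at 3 h. Mmp13 (chr9:7272514-7283331, plus strand, GRCm38) encodes an enzyme that cuts fibrillar collagen, type II collagen above all. At 18 h it had 6.38, 4.53, 6.21 and 8.98 CPM in S14, 128, 137, 98.2 and 86.7 CPM in LPS, and 6.97, 5.22, 6.71 and 5.25 CPM in untreated libraries. At 3 h the levels were 36.4, 51.5, 52.1 and 46.6 CPM in S14, 1594, 1835, 1601 and 1461 CPM in LPS, and 7.06, 5.86, 8.58 and 5.62 CPM in untreated libraries. S14 at 18 h overlapped untreated cells, while LPS at both times and S14 at 3 h stood above every untreated library. LPS raised Mmp13 18.5-fold at 18 h (log2 fold change 4.21 ± 0.16 SE, adjusted p = 6.85e-21) and 237-fold at 3 h (7.89 ± 0.17 SE, adjusted p = 3.19e-28). S14 raised it 6.84-fold at 3 h (log2 fold change 2.77 ± 0.18 SE, adjusted p = 5.31e-14) and left it uncalled at 18 h (0.10, adjusted p = 0.788). S14 cells stayed far below LPS cells in the direct test, with a log2 difference of -4.11 at 18 h and -5.12 ± 0.14 SE at 3 h (adjusted p = 5.08e-25). The response itself was smaller at 18 h than at 3 h, by -2.67 for S14 (adjusted p = 4.17e-08) and by -3.68 for LPS (adjusted p = 1.12e-13).

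Mmp12, the macrophage elastase, was already abundant in untreated cells and turned in opposite directions under LPS. The gene lies at chr9:7344381-7369499 on the plus strand. Its levels at 18 h were 116, 138, 176 and 206 CPM in S14, 84.6, 103, 74.3 and 71.2 CPM in LPS, and 117, 155, 167 and 171 CPM in untreated libraries. Those at 3 h were 189, 198, 180 and 191 CPM in S14, 302, 303, 337 and 257 CPM in LPS, and 173, 209, 193 and 167 CPM in untreated libraries. All LPS libraries lay below all untreated ones at 18 h and above all of them at 3 h, and S14 overlapped untreated cells at both times. LPS lowered Mmp12 to 0.545 times the untreated level at 18 h (log2 fold change -0.88 ± 0.15 SE, adjusted p = 1.04e-05) and raised it 1.61-fold at 3 h (0.69 ± 0.14 SE, adjusted p = 0.000136). The difference between those responses was -1.57 (adjusted p = 2.46e-07). The S14 log2 fold change was 0.06 at 18 h (adjusted p = 0.815) and 0.03 at 3 h (adjusted p = 0.946), and with spike-in scaling the value at 18 h turned to -0.99 and was called (adjusted p = 0.00988). S14 cells were thus above LPS cells at 18 h (log2 difference 0.93, adjusted p = 7.38e-06, or 0.64 with an adjusted p of 0.181 under spike-in scaling) and below them at 3 h (-0.66, adjusted p = 0.000271). Under spike-in scaling with untreated replicate 4 at 18 h left out, Mmp12 at 18 h was not called for S14 against untreated cells. It was called for S14 against LPS.

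Mmp8, a collagenase best known from neutrophil granules, was raised by both S14 and LPS at 18 h. It lies at chr9:7558456-7568485 on the plus strand. At 18 h it had 33.1, 36.8, 55.2 and 50.3 CPM in S14, 37.2, 26.4, 34.2 and 41.1 CPM in LPS, and 13.0, 16.0, 12.3 and 10.2 CPM in untreated libraries. At 3 h it had 16.0, 16.2, 16.2 and 14.1 CPM in S14, 21.1, 17.0, 11.9 and 14.5 CPM in LPS, and 27.3, 20.9, 17.4 and 17.9 CPM in untreated libraries. At 18 h both treatments stood clear of untreated cells and overlapped each other. Mmp8 was 3.40-fold higher with S14 (log2 fold change 1.76 ± 0.18 SE, adjusted p = 5.13e-10) and 2.70-fold higher with LPS (1.43 ± 0.19 SE, adjusted p = 1.09e-08) at 18 h. Neither treatment was called at 3 h (adjusted p = 0.158 for S14 and 0.102 for LPS), although LPS came to -0.53 with an adjusted p of 0.0322 without LPS replicate 1. S14 and LPS differed by 0.33 at 18 h (adjusted p = 0.123), or by 0.45 without S14 replicate 1 (adjusted p = 0.0481).

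Untreated cells had less Mmp8 at 18 h than at 3 h (log2 difference -0.70, adjusted p = 0.00343). Under spike-in scaling the difference was 0.01 (adjusted p = 0.978), or -0.29 with untreated replicate 4 at 18 h left out as well (adjusted p = 0.525). The S14 response was larger at 18 h than at 3 h by 2.19 (adjusted p = 4.80e-08) and the LPS response by 1.81 (adjusted p = 3.18e-07), with adjusted p-values of 0.0525 and 0.136 under spike-in scaling. Under that scaling with untreated replicate 4 at 18 h left out, both differences were called. Markers of neutrophils were looked at beside Mmp8. The summed level of the 12 listed markers was 46.5 to 60.6 CPM in S14, 122 to 175 CPM in LPS and 24.0 to 43.9 CPM in untreated libraries at 18 h, and 25.4 to 27.4, 60.7 to 79.0 and 9.02 to 12.6 CPM in the same groups at 3 h. Most of it came from Csf3r and S100a8. The defining granule and surface genes Elane, Prtn3, Ly6g and Retnlg had at most 1 read in any group, Ltf at most 3 and Mpo at most 7. Of the other granule genes, Camp had 7 reads in S14, 12 in LPS and 0 in untreated cells at 18 h. It had 9, 6 and 0 in the same groups at 3 h, and Ngp had at most 7 in any group. The listed marker S100a9 had at most 97 reads in any group. The part of neutrophil RNA in the Mmp8 result was not tested.

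Mmp13, Mmp12 and Mmp8 belong to a run of 10 Mmp genes on mouse chromosome 9, and the neighbours between them were almost silent. Mmp1a, Mmp1b, Mmp3, Mmp7 and Mmp20 had 0 reads in all 24 libraries. A count of 0 over a group allows up to 3 reads, or 0.123 to 0.197 CPM, for counting error only. Mmp10, a stromelysin, had 0 reads in S14, 13 in LPS and 0 in untreated cells at 18 h, and 1 read in S14, 13 in LPS and 3 in untreated cells at 3 h. Mmp27, which lies next to Mmp8, averaged 8.13 ± 1.87 CPM in S14, 4.70 ± 0.326 CPM in LPS and 6.10 ± 2.90 CPM in untreated libraries at 18 h (SD, n = 4 each) and was called in no comparison between treatments or with untreated cells. The expressed members of the run therefore had separate courses: Mmp13 peaked under LPS at 3 h, Mmp12 crossed the untreated level between the 2 times, and Mmp8 was higher with both treatments at 18 h. Mmp12 overlaps Mmp1b, which had 0 reads, at its 3′ end on the opposite strand.

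**Figure D2:**
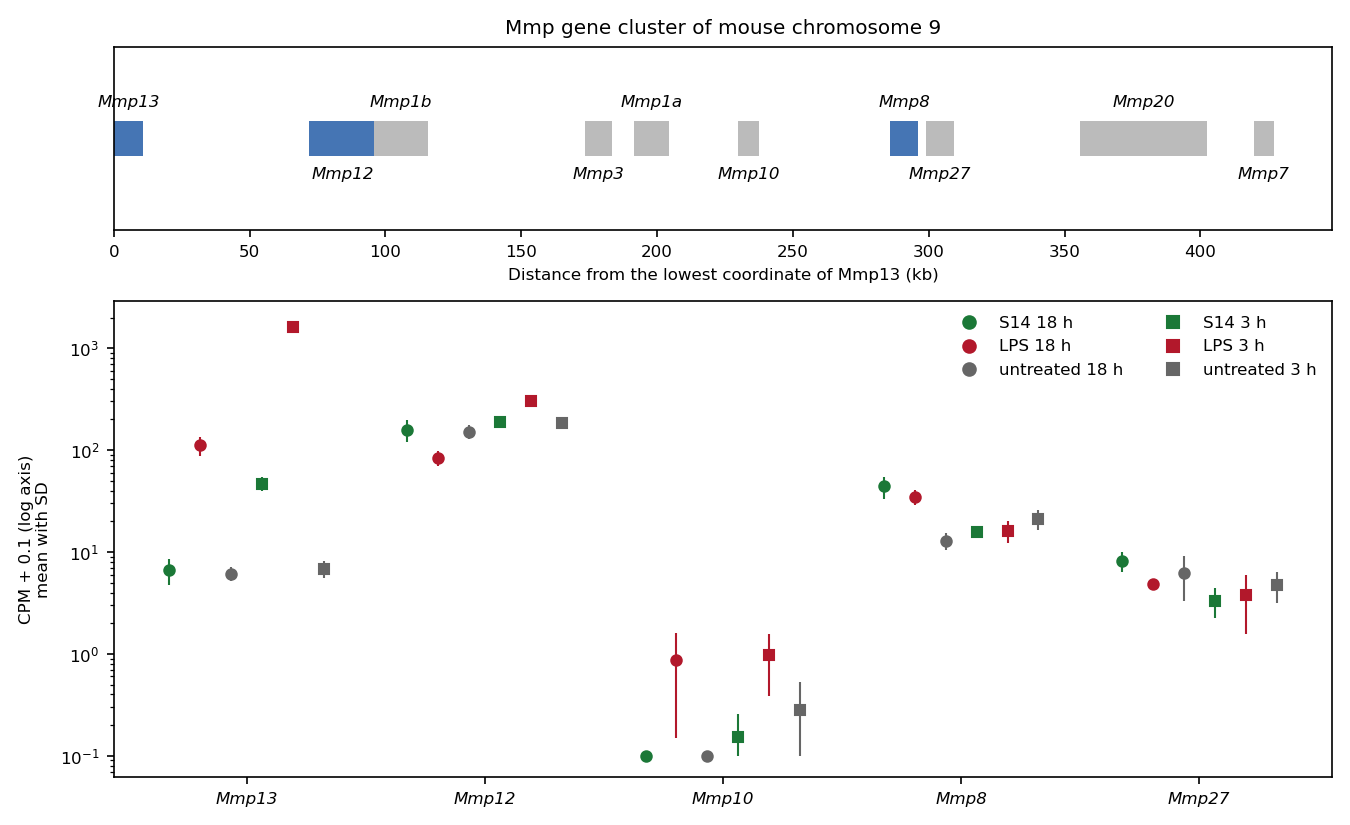
Top, the run of 10 Mmp genes on mouse chromosome 9 by distance in kb from Mmp13, with the members in blue; bottom, mean level with SD (log axis, CPM + 0.1, bars cut at 0.1) of the 5 of them that had any read, circles for 18 h and squares for 3 h. Mmp13 spans 1620 CPM in LPS at 3 h to 6.04 CPM in untreated cells at 18 h, while Mmp27 stays between 3.24 and 8.13 CPM.

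The start regions of these 3 genes are printed because the genes belong to 1 run yet moved differently. They are RefSeq windows of GRCm38.p6, 250 bases before to 50 after the annotated start and all on the plus strand, at chr9:7272264-7272563 for Mmp13, chr9:7347124-7347423 for the second of 2 starts listed for Mmp12, and chr9:7558179-7558478 for Mmp8. Reads from the 3′ end do not tell which Mmp12 start was used. Capitals mark matches, on either strand, to the AP-1 motif TGANTCA and to the TATA box TATAAA, which nowhere overlapped; the NF-kB consensus was searched too.
Mmp13: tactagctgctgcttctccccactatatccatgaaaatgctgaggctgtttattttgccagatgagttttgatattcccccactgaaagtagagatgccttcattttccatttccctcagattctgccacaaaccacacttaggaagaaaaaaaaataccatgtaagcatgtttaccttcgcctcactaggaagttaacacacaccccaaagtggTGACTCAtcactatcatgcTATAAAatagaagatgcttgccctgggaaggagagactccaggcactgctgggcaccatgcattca
Mmp12: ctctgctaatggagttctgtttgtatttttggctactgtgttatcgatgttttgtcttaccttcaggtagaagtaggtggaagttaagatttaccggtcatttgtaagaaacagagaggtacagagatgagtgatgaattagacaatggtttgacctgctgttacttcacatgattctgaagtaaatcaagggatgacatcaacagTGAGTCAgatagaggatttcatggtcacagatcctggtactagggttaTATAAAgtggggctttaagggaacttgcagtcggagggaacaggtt
Mmp8: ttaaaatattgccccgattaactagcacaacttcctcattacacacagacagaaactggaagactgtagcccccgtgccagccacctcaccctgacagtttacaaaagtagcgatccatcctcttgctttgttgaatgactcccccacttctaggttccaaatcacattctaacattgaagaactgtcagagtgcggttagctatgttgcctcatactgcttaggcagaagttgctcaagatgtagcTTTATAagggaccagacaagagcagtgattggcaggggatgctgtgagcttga
Counting from 0 at the start base, Mmp13 held TGACTCA at -35 and a TATA box at -16, and Mmp12 held TGAGTCA at -44 and a TATA box at 4. Mmp8 held a TATA box on the minus strand at -3. The other Mmp12 start, the Mmp14 window and both Timp windows held none of the motifs, and no NF-kB match was found in the 7 windows of the 6 members that could be matched. Among all 32851 RefSeq start windows of this size, 7.81% hold the AP-1 motif, 13.6% the TATA box and 4.51% the NF-kB consensus. A match says only that these letters are present.

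Mmp14 was the member that both stimuli raised at both times. It encodes a membrane-anchored collagenase that also activates pro-Mmp2 at the cell surface, and it lies at chr14:54431612-54445364 on the plus strand. Levels at 18 h were 115, 120, 190 and 178 CPM in S14, 530, 500.0, 714 and 944 CPM in LPS, and 6.19, 4.11, 5.45 and 18.4 CPM in untreated libraries. After 3 h they were 113, 125, 188 and 214 CPM in S14, 369, 297, 437 and 434 CPM in LPS, and 12.7, 9.23, 14.5 and 17.6 CPM in untreated libraries. The 3 groups did not overlap at either time, with LPS above S14 and S14 above untreated cells. S14 raised Mmp14 17.9-fold at 18 h (log2 fold change 4.16 ± 0.38 SE, adjusted p = 1.11e-07) and 11.9-fold at 3 h (3.58 ± 0.37 SE, adjusted p = 4.60e-07). LPS raised it 80.0-fold at 18 h (6.32 ± 0.39 SE, adjusted p = 2.88e-11) and 28.5-fold at 3 h (4.84 ± 0.37 SE, adjusted p = 9.23e-10).

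S14 cells had 0.224 times the Mmp14 level of LPS cells at 18 h (adjusted p = 6.05e-06) and 0.418 times at 3 h (adjusted p = 0.00145). Untreated replicate 4 at 18 h, the library that stood apart, carried the 18.4 CPM, and without it the log2 fold change at 18 h was 4.84 for S14 and 7.01 for LPS. The difference of the S14 response between 18 h and 3 h was not called (0.58, adjusted p = 0.542). The LPS response was larger at 18 h by 1.49 (adjusted p = 0.0306, or 0.801 at 0.26 under spike-in scaling), but the adjusted p ran from 0.0506 to 0.0730 without any 1 of LPS replicate 4 at 18 h, LPS replicate 2 at 3 h, untreated replicates 1, 2 and 3 at 18 h and untreated replicates 3 and 4 at 3 h, and it fell to 0.0032 at 2.17 without untreated replicate 4 at 18 h. Mmp2, the proenzyme that Mmp14 activates, had at most 6 reads in any group.

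Mmp9, the gelatinase that cuts denatured collagen and type IV collagen, was the 1 protease that S14 raised and LPS did not. It lies at chr2:164940780-164955850 on the plus strand and was scarce. At 18 h S14 libraries held 14, 17, 31 and 49 reads, LPS libraries 3, 5, 4 and 8, and untreated libraries 7, 4, 17 and 6. At 3 h S14 libraries held 16, 17, 22 and 21 reads, LPS libraries 2, 8, 6 and 8, and untreated libraries 12, 16, 9 and 4. In CPM, S14 at 18 h ran from 2.79 to 11.0 and lay above all LPS and all untreated libraries, while LPS and untreated cells overlapped. Mmp9 was 4.31-fold higher with S14 than in untreated cells at 18 h (log2 fold change 2.11 ± 0.47 SE, adjusted p = 0.000771) and 5.11-fold higher than with LPS (2.35 ± 0.51 SE, adjusted p = 0.000198). With LPS it was not called against untreated cells (adjusted p = 0.733 at 18 h and 0.369 at 3 h), nor was S14 at 3 h (0.77, adjusted p = 0.339).

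S14 and LPS differed in Mmp9 at 3 h as well, by 1.36 (adjusted p = 0.0269), but the adjusted p was 0.104 without LPS replicate 1, 0.0607 without LPS replicate 3, 0.0592 without S14 replicate 3 and 0.161 under spike-in scaling. The difference of the S14 response between 18 h and 3 h was 1.33 and was not called (adjusted p = 0.186). The neutrophil markers given beside Mmp8 had a lower sum with S14 than with LPS at 18 h, mostly from Csf3r and S100a8. Camp (7 reads in S14 and 12 in LPS), Ltf (0 and 2) and Ly6g (0 and 1) were lower with S14 too. S100a9 (20 and 8), Ngp (5 and 0) and Cxcr2 (1 and 0) were higher with S14. The part of neutrophil RNA in the Mmp9 result was not tested.

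Adamts4 was close to absent in untreated cells and gave a sharp early response. This secreted metalloproteinase cuts the proteoglycans aggrecan and versican. The gene lies at chr1:171250421-171260637 on the plus strand. At 18 h the S14 libraries held 0, 0, 1 and 0 reads, the LPS libraries 3, 1, 4 and 2, and the untreated libraries 0, 0, 7 and 0. At 3 h the S14 libraries held 36, 33, 49 and 89 reads, the LPS libraries 538, 474, 472 and 456, and the untreated libraries 2, 1, 0 and 0. All S14 and LPS libraries at 3 h were far above every other library, with LPS above S14. In CPM that was 10.6 ± 3.16 with S14, 128 ± 14.1 with LPS and 0.174 ± 0.225 in untreated cells at 3 h (SD, n = 4 each).

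Because untreated cells held only 3 Adamts4 reads at 3 h, the fold changes are given as ratios of scaled reads with a 95% counting interval: 63.1 (21.3 to 308) for S14 and 727 (248 to 3530) for LPS. Both were called (adjusted p = 1.54e-11 for S14 and 1.06e-22 for LPS). Untreated replicate 1 held 2 of those reads, and without it the fitted log2 fold change was 6.70 for S14 and 10.26 for LPS, where all libraries gave 5.75 and 9.30. S14 cells had 0.0849 times the level of LPS cells at 3 h (log2 difference -3.56 ± 0.22 SE, adjusted p = 4.63e-17). At 18 h neither treatment was called against untreated cells (adjusted p = 0.257 for S14 and 0.315 for LPS), and all 7 untreated reads came from replicate 3. Without that library LPS at 18 h was called (adjusted p = 0.00225), on 10 reads against 0. Under spike-in scaling S14 at 18 h was called lower than untreated cells (-2.54, adjusted p = 0.046), on 1 read against 7. With untreated replicate 4 at 18 h left out as well it was -2.71 (adjusted p = 0.0493). S14 was below LPS at 18 h on 1 read against 10, a ratio of 0.0918 (0.00211 to 0.645, adjusted p = 0.0354), and this call was lost (adjusted p of 0.0715 to 0.0980) without any 1 of LPS replicates 1 and 3 or S14 replicates 1, 2 and 4. S14 replicate 3 held the 1 read, and leaving it out moved the fitted log2 difference to -4.50, where all libraries gave -2.92.

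**Figure D3:**
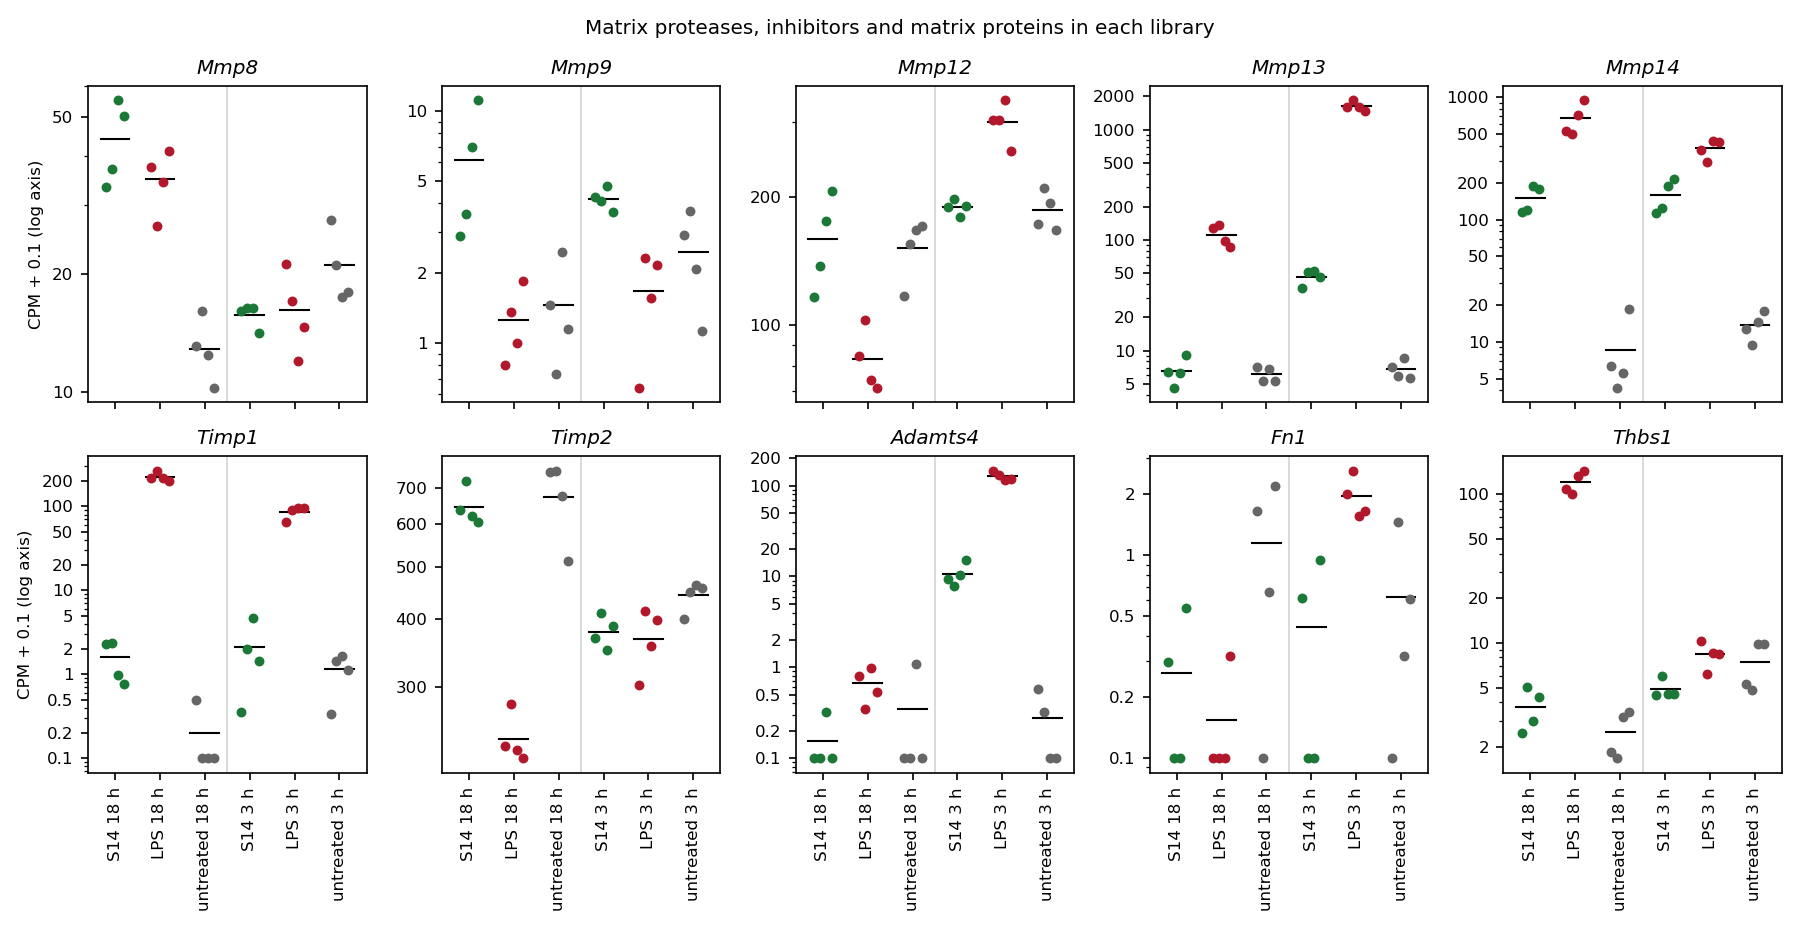
Level of each of the 10 members in every library (points, CPM + 0.1 on a log axis, 4 libraries per group) with the group mean as a line, S14 in green, LPS in red and untreated in grey, 18 h left of 3 h. Mmp13 and Adamts4 are high in LPS at 3 h, Thbs1 in LPS at 18 h, and Mmp9 highest in S14 at 18 h.

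Timp1, the inducible inhibitor of most secreted metalloproteinases, separated LPS from S14 more widely at 18 h than the other tested members did. It lies at chrX:20870166-20874735 on the plus strand. At 18 h the S14 libraries held 11, 11, 4 and 3 reads, the LPS libraries 935, 1055, 974 and 911, and the untreated libraries 2, 0, 0 and 0. At 3 h the S14 libraries held 1, 8, 22 and 8 reads, the LPS libraries 239, 323, 398 and 364, and the untreated libraries 1, 6, 7 and 4. Every LPS library stood above every other library at both times, S14 cleared untreated cells at 18 h, and S14 overlapped untreated cells at 3 h. Levels were 1.50 ± 0.841 CPM with S14, 225 ± 28.3 CPM with LPS and 0.0968 ± 0.194 CPM in untreated cells at 18 h, and 2.03 ± 1.86, 86.4 ± 14.8 and 1.04 ± 0.576 CPM in the same groups at 3 h (SD, n = 4 each).

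With 2 untreated Timp1 reads at 18 h, the ratio of scaled reads was 18.7 (95% counting interval 4.74 to 162) for S14 and 2730 (755 to 22500) for LPS, both called (adjusted p = 0.00354 for S14 and 1.04e-18 for LPS). Both reads came from replicate 1, and without it the fitted log2 fold change was 5.86 for S14 and 13.03 for LPS, where all libraries gave 3.84 and 11.01. At 3 h LPS raised Timp1 80.4-fold (log2 fold change 6.33 ± 0.33 SE, adjusted p = 1.78e-15), and S14 had a log2 fold change of 0.97 that was not called (adjusted p = 0.34) and came to 0.20 without S14 replicate 3. S14 cells had 0.00694 times the level of LPS cells at 18 h (adjusted p = 3.18e-17) and 0.0243 times at 3 h (adjusted p = 7.07e-15), where the log2 difference of -5.36 became -6.13 without S14 replicate 3. Untreated cells had fewer reads at 18 h than at 3 h, a ratio of 0.0782 (0.0088 to 0.327, adjusted p = 0.0147), which was lost without untreated replicate 4 at 18 h (adjusted p = 0.0504) or untreated replicate 3 at 3 h (adjusted p = 0.0529).

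The fitted LPS response of Timp1 was larger at 18 h than at 3 h by 4.68 (adjusted p = 0.000519), and by 6.70 without that untreated replicate 1; such fitted values depend on the prior count. For S14 the same difference was 2.87 (adjusted p = 0.109), and it was called without S14 replicate 3 at 3 h (3.64, adjusted p = 0.0128), without untreated replicate 1 at 18 h (4.89, adjusted p = 0.0476), with DESeq2 (3.19, adjusted p = 0.0449) and with no filter on low counts (2.89, adjusted p = 0.00766). The 3′ end of Timp1 lies inside Syn1, on the other strand. Syn1 held 342 reads in S14, 444 in LPS and 439 in untreated libraries at 18 h, and 226, 179 and 220 in the same groups at 3 h. No source used here gives the strand setting of the counting, so reads of the 2 genes cannot be told apart with certainty. Syn1 was itself higher with LPS at 18 h, though far less than Timp1, at 18.2 ± 3.13 CPM in S14, 25.8 ± 2.56 CPM in LPS and 18.2 ± 4.09 CPM in untreated cells (SD, n = 4 each; log2 fold change for LPS 0.50, adjusted p = 0.0291). At 3 h neither treatment was called for Syn1 (adjusted p = 0.83 for S14 and 0.656 for LPS).

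Timp2, which is known as a constitutive inhibitor and as the partner of Mmp14 in activating pro-Mmp2, went the other way. It lies at chr11:118301069-118355740 on the minus strand. Timp2 had at 18 h 635, 720.2, 619 and 605 CPM in S14, 232, 278, 229 and 221 CPM in LPS, and 748, 752, 676 and 513 CPM in untreated libraries. After 3 h it had 368, 410.0, 350.3 and 389 CPM in S14, 301, 413, 356 and 397 CPM in LPS, and 399, 448, 463 and 457 CPM in untreated libraries. At 18 h LPS stood below all other libraries and S14 overlapped untreated cells. LPS lowered Timp2 to 0.357 times the untreated level at 18 h (log2 fold change -1.48 ± 0.10 SE, adjusted p = 1.20e-15), and S14 cells were above LPS cells by 1.42 (adjusted p = 9.67e-15). S14 was not called at 18 h (-0.06, adjusted p = 0.708), but came to -0.96 under spike-in scaling (adjusted p = 0.00591), or -0.64 with untreated replicate 4 left out as well (adjusted p = 0.0414).

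At 3 h the LPS and untreated ranges of Timp2 overlapped. The log2 fold change of -0.27 was called (adjusted p = 0.0223) but was 0.05 under spike-in scaling, and its call was lost with DESeq2 (adjusted p = 0.0793) and without any 1 of LPS replicates 1 and 3 or untreated replicates 3 and 4 (values of -0.25 to -0.18, adjusted p of 0.0523 to 0.127). S14 at 3 h had -0.22 (adjusted p = 0.152), or -0.21 with an adjusted p of 0.0109 when only the groups compared were fitted. Timp2 rose with time in untreated cells, 1.52-fold at 18 h over 3 h (log2 difference 0.61, adjusted p = 4.73e-06). The LPS response was more negative at 18 h than at 3 h by -1.22 (adjusted p = 2.47e-09), and the same difference for S14 was not called (adjusted p = 0.493).

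The start windows of both inhibitors are shown next to each other since LPS moved the genes in opposite directions. Timp1 is at chrX:20869916-20870215 on the plus strand and Timp2 at chr11:118355362-118355661 on the minus strand, both from RefSeq on GRCm38.p6 and read in the direction of the gene. Neither holds the AP-1, TATA or NF-kB motif searched above, so no base is in capitals. Guanine and cytosine make up 55.0% of the Timp1 window and 68.7% of the Timp2 window.
Timp1: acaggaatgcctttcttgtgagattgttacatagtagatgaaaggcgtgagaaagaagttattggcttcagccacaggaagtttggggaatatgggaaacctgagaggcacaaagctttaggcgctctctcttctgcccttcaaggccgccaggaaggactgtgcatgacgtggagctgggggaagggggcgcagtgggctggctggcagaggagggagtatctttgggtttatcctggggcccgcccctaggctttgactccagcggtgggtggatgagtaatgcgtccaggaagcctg
Timp2: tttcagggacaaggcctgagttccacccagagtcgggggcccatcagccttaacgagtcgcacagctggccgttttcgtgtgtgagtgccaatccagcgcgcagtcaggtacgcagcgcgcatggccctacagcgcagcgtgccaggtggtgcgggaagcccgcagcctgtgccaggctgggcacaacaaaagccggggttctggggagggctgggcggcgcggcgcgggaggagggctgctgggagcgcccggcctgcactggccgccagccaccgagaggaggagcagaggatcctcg

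Thbs1, a secreted glycoprotein that binds matrix and cell surfaces and can activate latent TGF-beta, was raised by LPS at 18 h and not called with LPS at 3 h. It lies at chr2:118111876-118127133 on the plus strand. At 18 h it had 2.39, 4.94, 2.88 and 4.27 CPM in S14, 108, 100.4, 133 and 144 CPM in LPS, and 1.74, 1.58, 3.08 and 3.33 CPM in untreated libraries. At 3 h it had 4.39, 5.88, 4.43 and 4.41 CPM in S14, 10.3, 6.13, 8.50 and 8.31 CPM in LPS, and 5.18, 4.73, 9.68 and 9.70 CPM in untreated libraries. LPS at 18 h stood apart from all other libraries, and at 3 h LPS overlapped untreated cells. LPS raised Thbs1 48.9-fold at 18 h (log2 fold change 5.61 ± 0.23 SE, adjusted p = 4.58e-24) and was not called at 3 h (0.19, adjusted p = 0.541), a difference between the times of 5.43 (adjusted p = 2.92e-17).

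S14 was not called for Thbs1 at 18 h (adjusted p = 0.202) or at 3 h (-0.62, adjusted p = 0.115, or -0.78 with an adjusted p of 0.0452 without untreated replicate 2). S14 cells were below LPS cells by -5.06 at 18 h (adjusted p = 3.22e-22) and by -0.80 at 3 h (adjusted p = 0.0101, or 0.0735 under spike-in scaling). Untreated cells had less Thbs1 at 18 h than at 3 h (log2 difference -1.56, adjusted p = 1.47e-05, or -0.76 with 0.144 under spike-in scaling). The S14 response differed between the times by 1.17 (adjusted p = 0.0407), and this call was lost (values of 0.98 to 1.14, adjusted p of 0.0611 to 0.129) without any 1 of S14 replicates 2 and 4 at 18 h, S14 replicates 1, 3 and 4 at 3 h, untreated replicates 1 and 2 at 18 h and untreated replicates 3 and 4 at 3 h, when only the groups compared were fitted (adjusted p = 0.118), with the reads of the second table (adjusted p = 0.056) and under spike-in scaling (0.11, adjusted p = 0.888).

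Fn1, fibronectin, the adhesive glycoprotein of plasma and matrix, was close to absent, with 72 reads in all. It lies at chr1:71585520-71653200 on the minus strand. At 18 h it had 1, 0, 0 and 2 reads in S14, 0, 0, 0 and 1 in LPS, and 8, 0, 4 and 12 in untreated libraries. At 3 h it had 2, 0, 0 and 5 reads in S14, 7, 9, 6 and 6 in LPS, and 0, 6, 1 and 2 in untreated libraries. Every LPS library at 3 h held reads and lay above all S14 and untreated libraries of that time in CPM. LPS averaged 1.85 ± 0.474 CPM and untreated cells 0.520 ± 0.592 CPM at 3 h (SD, n = 4 each, two-sided exact permutation p = 0.0286, the smallest this design allows, and 0.10 after Benjamini-Hochberg adjustment over 7 comparisons). S14 averaged 0.341 ± 0.416 CPM at 3 h, with the same exact permutation p of 0.0286 against LPS. None of the 7 comparisons passed after adjustment, which 1 or 2 comparisons at that smallest p cannot do. With no filter on low counts, edgeR called Fn1 lower with LPS at 18 h (log2 fold change -3.64, adjusted p = 0.0153) and its LPS response lower at 18 h than at 3 h (-5.40, adjusted p = 0.00353). Against the 24 untreated reads at 18 h, the ratio of scaled reads was 0.162 (95% counting interval 0.0311 to 0.532) for S14 and 0.0587 (0.00143 to 0.360) for LPS, and the exact permutation p was 0.171 and 0.143.

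Markers of other cells were read beside the matrix genes. The 9 fibroblast or stromal markers summed to 0 to 2.22 CPM in S14, 10.3 to 18.1 CPM in LPS and 0.14 to 1.75 CPM in untreated libraries at 18 h, and the LPS level came from Dcn, with 240 reads. Col3a1, Lum and Pdgfra had 0 reads in every group, and Col1a1 at most 4. Pdgfrb had 2 reads in S14, 3 in LPS and 6 in untreated cells at 18 h, and 28, 30 and 9 in the same groups at 3 h. The stromal sum at 3 h was 0.775 to 2.2 CPM in S14, 1.62 to 4.41 CPM in LPS and 0 to 1.32 CPM in untreated libraries. The 6 erythroid or megakaryocyte markers, relevant since platelets store Thbs1, summed to 122 to 147 CPM in S14, 196 to 263 CPM in LPS and 39.6 to 51.7 CPM in untreated libraries at 18 h. At 3 h the sums were 186 to 227, 198 to 228 and 138 to 179 CPM in the same groups. Nearly all of it was Pf4, and Hbb-bs and Hba-a1 had 0 reads in every group. The platelet genes Ppbp and Itga2b also had reads: Ppbp had 14 in S14, 69 in LPS and 15 in untreated cells at 18 h, and Itga2b had 15, 17 and 2. The part of Pf4-, Dcn- or Pdgfrb-expressing cells in the Thbs1 and Timp1 results was not tested.

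Set against each other, S14 and LPS differed in most of the members. At 18 h S14 was above LPS for 3 of 9 (Mmp9, Mmp12 and Timp2) and below it for 5 (Mmp13, Mmp14, Timp1, Adamts4 and Thbs1), with Mmp8 not called, where 42.6% of all tested genes were called, 21.3% in each direction. After 3 h S14 was above LPS for Mmp9 and below it for 6 (Mmp12, Mmp13, Mmp14, Timp1, Adamts4 and Thbs1), where 46.1% of all genes were called, 23.7% as higher and 22.4% as lower. The median log2 difference over the members was -2.16 at 18 h and -0.80 at 3 h, with medians over all genes of 0.02 and 0.07.

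The times of the responses also differed between members. The S14 response was larger at 18 h for Mmp8, more positive for Thbs1 and smaller for Mmp13 and Adamts4. That is 4 of 9, with 16.6% of all genes called, 7.61% as higher and 8.98% as lower. For Thbs1, S14 was called against untreated cells at neither time (0.55 at 18 h and -0.62 at 3 h). Its mean was 3.62 CPM with S14 and 2.43 CPM in untreated cells at 18 h, and 4.78 and 7.32 CPM at 3 h. The LPS response was larger at 18 h for Mmp8, Mmp14, Timp1 and Thbs1 and smaller or more negative for Mmp12, Mmp13, Timp2 and Adamts4, 8 of 9 with 51.2% called, 25.1% as higher and 26.1% as lower. For Adamts4 the fitted differences were -7.71 for S14 (adjusted p = 0.00018) and -8.35 for LPS (adjusted p = 1.77e-06); they rest on the 7 untreated reads of 1 library at 18 h, and came to -4.19 (adjusted p = 0.939) and -4.84 (adjusted p = 0.909) without it. Leaving out untreated replicate 1 at 3 h moved the LPS value to -9.30, and leaving out S14 replicate 3 at 18 h gave -9.28 for S14. Responses at each time are measured against that time's own untreated cells, which S14 and LPS share, and untreated cells themselves had 1 member higher (Timp2) and 3 lower (Mmp8, Timp1 and Thbs1) at 18 h than at 3 h, where 38.8% of all genes were called, 19.2% as higher and 19.6% as lower. Mmp14 in untreated cells was not called over time (-0.68, adjusted p = 0.277) but was without untreated replicate 4 at 18 h (-1.36, adjusted p = 0.0466), and Mmp12 (-0.28, adjusted p = 0.112) was called with no filter on low counts (-0.30, adjusted p = 0.00993).

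**Figure D4:**
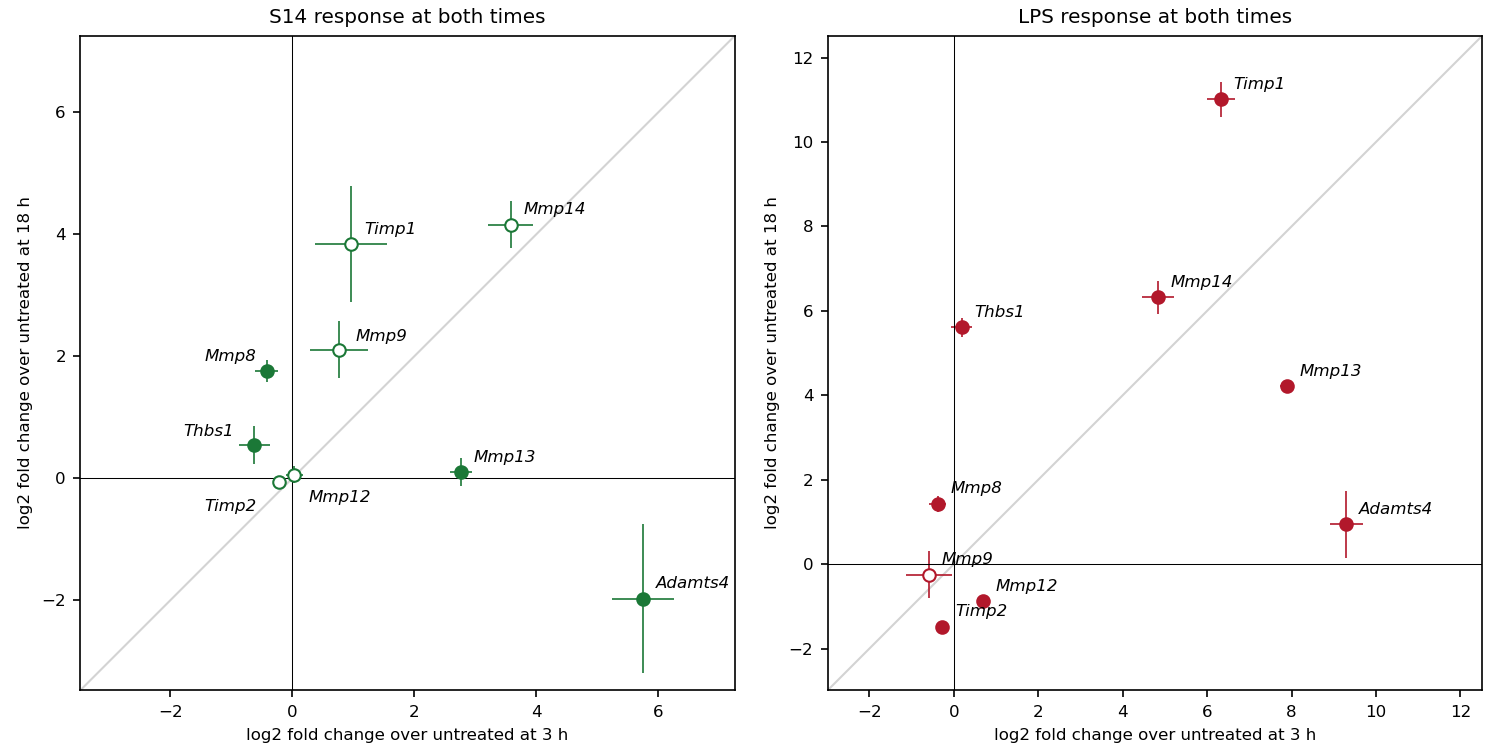
Log2 fold change against untreated cells at 18 h (vertical axis) and at 3 h (horizontal axis) for the 9 tested members, with SE bars, S14 left and LPS right; filled points had a difference between the times with an adjusted p under 0.05, and the grey line marks equal responses. Mmp13 and Adamts4 lie below the line in both panels, and Thbs1 and Timp1 lie above it under LPS; the Timp1 values at 18 h and all Adamts4 values rest on few untreated reads.

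Most relatives of the members had too few reads to be tested. Counts of calls in the lists below are to be read against the shares called among all genes, 24.3% for S14 and 55.6% for LPS at 18 h and 15.2% and 55.5% at 3 h. Of the 18 other matrix metalloproteinases only Mmp19, Mmp25 and Mmp27 had enough reads to be tested. Mmp19 averaged 33.1 ± 2.93 CPM in S14, 69.1 ± 11.3 CPM in LPS and 14.6 ± 2.86 CPM in untreated cells at 18 h (SD, n = 4 each), with a log2 fold change of 1.18 for S14 (adjusted p = 6.67e-07) and 2.23 for LPS (adjusted p = 1.67e-15); under spike-in scaling S14 had 0.30 (adjusted p = 0.413). Mmp25, a glycolipid-anchored metalloproteinase, rose with LPS by 4.61 at 18 h (adjusted p = 1.98e-12, or 5.33 without untreated replicate 1) and by 5.16 at 3 h (adjusted p = 5.41e-14). It averaged 22.0 ± 6.32 CPM in LPS and 0.909 ± 0.846 CPM in untreated cells at 18 h, and 42.7 ± 3.90 CPM in LPS and 1.18 ± 0.546 CPM in untreated cells at 3 h. S14 was called higher for Mmp25 too. At 18 h it had 3.57 ± 2.38 CPM, which overlapped untreated cells (log2 fold change 2.00, adjusted p = 0.00192). At 3 h it had 3.98 ± 1.57 CPM (1.72, adjusted p = 0.0114). Of the inhibitors, Timp3 had at most 6 reads in any group and Timp4 had 0 in all.

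Of 28 other Adam and Adamts proteases, 8 were tested, and at 18 h more of them were called lower than higher. S14 had 4 of the 8 lower and 4 not called at 18 h, with a median log2 fold change of -0.41, and LPS had 6 lower and 2 higher, with a median of -0.54. For S14 at 3 h, 1 was higher and 2 lower (median -0.05), and LPS had 2 higher and 3 lower (median -0.33). Adamts10, a secreted protease that binds fibrillin, was lower with LPS at 18 h (8.20 ± 1.33 CPM, against 36.9 ± 10.8 CPM in untreated cells, log2 fold change -2.17, adjusted p = 2.22e-10) and at 3 h (-1.90, adjusted p = 1.13e-07). With S14 it was lower by -0.87 at 18 h (adjusted p = 0.00194) and by -0.67 at 3 h (adjusted p = 0.0454), the last of which was lost without any 1 of S14 replicates 1 to 4 or untreated replicates 1 and 2 (adjusted p of 0.0608 to 0.244) and under spike-in scaling (-0.54, adjusted p = 1). Adam8, a transmembrane sheddase of leukocytes, averaged 1430 ± 106 CPM in LPS and 514 ± 127 CPM in untreated cells at 18 h (log2 fold change 1.47, adjusted p = 1.26e-16, or 0.66 with 0.111 under spike-in scaling). At 3 h Adam8 was lower with S14 by -0.37 (adjusted p = 0.00406) and with LPS by -0.75 (adjusted p = 9.26e-09). Adam17, which sheds Tnf from the membrane, was higher with S14 at 3 h (540.0 ± 19.2 CPM, against 377 ± 6.67 CPM in untreated cells, log2 fold change 0.52, adjusted p = 4.17e-05, or 0.69 under spike-in scaling). With LPS it was higher at 3 h as well (667 ± 39.4 CPM, log2 fold change 0.82, adjusted p = 5.67e-10). At 18 h Adam17 was lower with S14 by -0.25 (adjusted p = 0.0415) and with LPS by -0.51 (adjusted p = 1.3e-05). Adam9 rose with LPS at 3 h by 1.31 (adjusted p = 0.000184). Adam33 was lower at 18 h with S14 by -0.76 (adjusted p = 0.00546) and with LPS by -1.13 (adjusted p = 2.14e-05).

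Of the 8 other inhibitors and activators, 2 were tested. Bsg, a glycoprotein named for inducing metalloproteinases, was higher at 18 h with S14 by 0.46 (adjusted p = 5.78e-05, but -0.53 under spike-in scaling) and with LPS by 0.81 (adjusted p = 5.54e-11, and 0.14 with an adjusted p of 0.727 under spike-in scaling). Furin, the convertase that activates membrane-type metalloproteinases, averaged 276 ± 19.2 CPM in LPS and 140.0 ± 15.8 CPM in untreated cells at 3 h (log2 fold change 0.98, adjusted p = 1.22e-11).

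Lysosomal cathepsins and their cystatin inhibitors were tested for 14 of 16 genes. Of those 14, S14 had 7 higher and 7 not called at 18 h (median log2 fold change 0.32), and LPS had 7 higher and 3 lower (median 0.13). Of the same 14, S14 at 3 h had 2 higher and 1 lower (median 0.02), and LPS had 6 higher and 8 not called (median 0.10). Cst7, a cystatin that inhibits cathepsins, averaged 15.8 ± 4.30 CPM in S14, 80.3 ± 16.2 CPM in LPS and 5.13 ± 2.87 CPM in untreated cells at 18 h, with log2 fold changes of 1.67 for S14 (adjusted p = 1.29e-05, or 0.74 with 0.0878 under spike-in scaling) and 4.01 for LPS (adjusted p = 1.06e-15). Ctsc, which activates granule serine proteases, rose with LPS by 1.75 at 18 h (adjusted p = 1.91e-20) and by 2.34 at 3 h (adjusted p = 6.37e-25), and with S14 by 0.63 at 3 h (adjusted p = 4.62e-07, or 0.445 under spike-in scaling). Ctsz rose with S14 at 18 h by 0.72 (adjusted p = 8.43e-11, but -0.30 under spike-in scaling), and Ctsl was lower with S14 at 3 h by -0.29 (adjusted p = 0.0112, lost at 0.0707 without untreated replicate 1 and at 1 under spike-in scaling). Ctsz averaged 1540 ± 62.4 CPM in S14, 1850 ± 91.8 CPM in LPS and 938 ± 81.7 CPM in untreated cells at 18 h.

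Other matrix proteins were tested for 14 of 37 genes. At 18 h S14 had 2 higher and 1 lower (median log2 fold change 0.10), and LPS had 8 higher and 2 lower (median 0.78). At 3 h S14 had 3 higher (median 0.02), and LPS had 5 higher and 1 lower (median 0.36). Vcan, the large proteoglycan versican that Adamts4 cuts, averaged 23.5 ± 4.33 CPM in S14, 342 ± 15.7 CPM in LPS and 8.72 ± 1.49 CPM in untreated cells at 3 h, with log2 fold changes of 1.43 for S14 (adjusted p = 1.32e-05) and 5.29 for LPS (adjusted p = 5.50e-20). At 18 h Vcan was higher with LPS by 3.11 (adjusted p = 3.23e-12). Tgfbi, a secreted adhesion protein, averaged 759 ± 76.9 CPM in S14, 2180 ± 154 CPM in LPS and 299 ± 37.6 CPM in untreated cells at 18 h (log2 fold change for S14 1.34, adjusted p = 6.33e-13, or 0.26 with 0.473 under spike-in scaling). Dcn, the small proteoglycan decorin and also 1 of the stromal markers above, was higher with LPS at 18 h by 5.25 (adjusted p = 2.67e-08, or 6.17 without untreated replicate 4). Emilin1, an elastin-associated glycoprotein, was higher with S14 at 18 h by 1.11 (adjusted p = 2.78e-06, or 0.21 with 0.569 under spike-in scaling) and lower with LPS at 3 h by -1.14 (adjusted p = 6.78e-06, or 0.0677 under spike-in scaling). Its level at 18 h was 27.8 ± 4.62 CPM in S14, 27.4 ± 4.21 CPM in LPS and 12.9 ± 1.44 CPM in untreated cells. Col18a1, a basement membrane collagen, was higher with S14 at 3 h by 0.66 (adjusted p = 0.000811, or 0.465 under spike-in scaling). Its level at 3 h was 43.0 ± 4.14 CPM in S14, 48.7 ± 3.16 CPM in LPS and 27.2 ± 4.62 CPM in untreated cells.

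Receptors for matrix were tested for 21 of 24 genes. At 18 h S14 had 8 higher and 3 lower (median 0.07), and LPS had 8 higher and 7 lower (median 0.04). At 3 h S14 had 8 higher and 3 lower (median -0.01), and LPS had 9 higher and 5 lower (median 0.08). Itgal, the alpha chain of the leukocyte integrin LFA-1, was higher with S14 by 1.75 at 18 h (adjusted p = 1.86e-10) and by 1.24 at 3 h (adjusted p = 5.56e-09), and with LPS by 2.90 at 18 h (adjusted p = 6.57e-19). Its level at 3 h was 75.7 ± 6.58 CPM in S14, 85.6 ± 8.79 CPM in LPS and 32.2 ± 5.59 CPM in untreated cells. Sdc4, a heparan sulphate proteoglycan of the cell surface, averaged 392 ± 56.0 CPM in S14, 1460 ± 207 CPM in LPS and 125 ± 12.4 CPM in untreated cells at 3 h, with log2 fold changes of 1.65 for S14 (adjusted p = 1.85e-10) and 3.54 for LPS (adjusted p = 2.53e-18). Itgb8, an integrin chain that binds latent TGF-beta, rose with LPS at 3 h by 5.98 (adjusted p = 3.15e-14), on 363 reads against 6 in untreated cells. Hmmr, a hyaluronan receptor also known as a mitotic gene, was lower at 18 h with S14 by -2.53 (adjusted p = 3.94e-12) and with LPS by -2.30 (adjusted p = 2.34e-12).

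The genes whose course over the 6 groups was most like that of a member were found as the smallest root mean square difference between centred log2 group means, among 9058 genes with at least 10 CPM in some group. For Adamts4 that was Il12b, a cytokine subunit, at 0.24, where the median over all candidates was 2.99. For Mmp13 it was Gbp5, a guanylate-binding protein, at 0.51 (median 2.92), and for Thbs1 it was Saa1, an acute-phase protein whose reads may be shared with close copies, at 0.49 (median 1.83). Timp1 was nearest to Il1rn, the interleukin-1 receptor antagonist, at 0.87 (median 3.32), and Mmp14 to the unnamed gene Gm34643 at 0.76 and to Fpr1, a formyl peptide receptor, at 0.80 (median 2.40). Mmp12 was nearest to Galnt7 at 0.08 (median 0.68). Mmp8 was nearest to Fabp5l2 at 0.16 (median 0.72), a copy of Fabp5 whose reads are uncertain. These distances describe 6 group means, which all draw on the same 24 libraries.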

How the data were processed

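The authors deposited whole-read counts per gene, with no normalization, for 24 libraries, and a second table with a signal of reads divided by 1 size factor per library. Per the submitters' processing notes, the GRCm38 build was used, and STAR 2.6.1a, cutadapt 1.18, FastQC, DESeq2, Subread and featureCounts 1.6.4 are listed. No source used here gives their order or the strand setting. Per the labels' protocols, QuantSeq 3′ FWD libraries were made from 150 ng of RNA with 15 PCR cycles. Column names of the deposited count table write Veh for the cells that the labels call untreated.

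Deposited counts were analysed in R 4.3.3 without the 7 ribosomal RNA entries, which took 0.132% to 0.469% of each library. A filter by group (filterByExpr, minimum count 10 at the median library size and minimum total 15) kept 11717 of 55401 genes and 9 of the 10 members. Scaling was by TMM (factors 0.755 to 1.18). The 6 groups were fitted together in edgeR 4.0.16 by robust quasi-likelihood (18 residual degrees of freedom), with F tests adjusted over all tested genes by Benjamini-Hochberg and calls at 0.05. Differences between times are interaction contrasts of treated over untreated cells. Groups with 1 to 3 reads are given as ratios with exact 95% intervals that cover counting error only; 3 reads stand for the most that a count of 0 allows. Fn1 was tested by two-sided exact permutation of the library labels. The code was tested on simulated counts.

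The deposited second table's signal was divided in each library by the smallest positive value, taken as 1 read. This gave whole reads within 8.59e-10 for 100% of values. The second table also holds 114 spike-in entries with 705 to 2588 reads per library. Alternatives were its reads, spike-in scaling with and without untreated replicate 4 at 18 h, DESeq2 1.42.0, other filters, fitting only the groups compared, a replicate block and leaving out each library. Outside the members, the text names, of each of 6 lists and each treatment against untreated cells, up to 2 called genes with the largest change and at least 10 CPM in the higher group. The gene nearest to Timp2 in course and 1 of the erythroid markers are not reported here. Members, lists and alternatives were chosen with earlier results of these data known.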

Additional observations from a re-analysis of the deposited data

Results flagged for a closer look

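In 7 of the 60 groups of 4 libraries, the highest or lowest library lay farther from the rest than Dixon's test allows. Chance gives about 5% of groups. That rate does not hold for groups with reads in a single library, which are always flagged, so the 7 cannot be set against it. Mmp14 in untreated replicate 4 at 18 h had 18.4 CPM, against 4.11 to 6.19 CPM in the other 3. Mmp8 in S14 replicate 4 at 3 h had 14.1 CPM, against 16.0 to 16.2 CPM. Thbs1 in S14 replicate 2 at 3 h had 5.88 CPM, against 4.39 to 4.43 CPM. The other 4 are single libraries with reads where the rest of the group had 0: Adamts4 in untreated replicate 3 at 18 h (0.979 CPM, 7 reads), Timp1 in untreated replicate 1 at 18 h (0.387 CPM, 2 reads), Adamts4 in S14 replicate 3 at 18 h (0.222 CPM, 1 read) and Fn1 in LPS replicate 4 at 18 h (0.218 CPM, 1 read).

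The response to S14, to LPS or to both differed between 18 h and 3 h, by the interaction test at an adjusted p under 0.05, for 8 members. Of all tested genes, 16.6% were called for S14 and 51.2% for LPS. The log2 differences for S14 were 2.19 for Mmp8, 1.17 for Thbs1, -2.67 for Mmp13 and -7.71 for Adamts4. Those for LPS were 1.81 for Mmp8, 1.49 for Mmp14, 4.68 for Timp1, 5.43 for Thbs1, -1.57 for Mmp12, -1.22 for Timp2, -3.68 for Mmp13 and -8.35 for Adamts4. The libraries behind the Adamts4, Timp1, Mmp14 and Thbs1 values are named with those results. Calls of Adamts4 for both treatments, of Thbs1 for S14 and of Mmp14 for LPS were lost without single libraries named there.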

How the results depend on the processing

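Direction and call held for most member results: 79 of 81 with DESeq2, 80 with the reads of the second table, 78 with no filter on low counts and 67 under spike-in scaling. With untreated replicate 4 at 18 h left out as well as spike-in scaling, 74 held. The reads of the second table called 2754 genes for S14 and 6384 for LPS at 18 h, and 1789 for S14 and 6400 for LPS at 3 h. Spike-in scaling changed most. For S14 at 18 h it called 7639 genes, 106 higher and 7533 lower (TMM 1480 and 1364), and 7 members (4 higher and 3 lower) where TMM called 4. It called 1915 genes for S14 against LPS at 18 h (519 higher and 1396 lower, TMM 2496 and 2500), 374 for S14 at 3 h (346 higher and 28 lower, TMM 1060 and 726), 3296 for LPS at 3 h (2341 higher and 955 lower, TMM 2964 and 3536), 2232 for S14 against LPS at 3 h (612 higher and 1620 lower, TMM 2775 and 2624) and 4115 for the time of the S14 response (20 higher and 4095 lower, TMM 892 and 1052), and 2 members for untreated cells over time. The split also moved for LPS at 18 h (695 higher and 4526 lower, TMM 3200 and 3317), the time of the LPS response (381 and 4476, TMM 2943 and 3057) and untreated cells over time (5426 and 213, TMM 2249 and 2298). With untreated replicate 4 at 18 h left out as well, it called 4018 genes for LPS at 18 h, 798 for S14 at 3 h, 3499 for S14 against LPS at 3 h and 2422 for untreated cells over time. Values that changed sign under spike-in scaling were Mmp12 for S14 at 18 h (-0.99) and for the time of the S14 response (-1.15), Mmp8 over time in untreated cells (0.01), Timp2 for LPS at 3 h (0.05, with or without that library), and Bsg (-0.53, and -0.02 without that library) and Ctsz (-0.30) for S14 at 18 h. With that library left out as well, neither Mmp12 value was called. Of 39 values of the other named genes, 12 kept their sign but lost their call under spike-in scaling, and 2 changed sign and lost it. With that library left out as well, 6 kept their sign but lost their call, and 1 changed sign and lost it. The cause was not tested; spike-ins had few reads per library.

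Leaving out 1 library gave 2327 to 3087 genes and 4 members for S14 at 18 h, 6067 to 6478 and 7 to 8 for LPS at 18 h, 4527 to 4845 and 7 to 8 for S14 against LPS at 18 h, 1491 to 1649 and 3 to 4 for S14 at 3 h, 6086 to 6244 and 5 to 6 for LPS at 3 h, 4926 to 5097 and 6 to 7 for S14 against LPS at 3 h, 1646 to 2116 and 3 to 4 for the time of the S14 response, 5779 to 6143 and 6 to 8 for that of the LPS response, and 3973 to 4476 and 3 to 4 for untreated cells over time.

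Replicate numbers were not used as pairs, since of 60 same-numbered pairs 1 had a correlation of deviations over 0.1 (range -0.101 to 0.143). However, 36 were highest with their own number, where unrelated numbers would give about 15, a hint from the data that numbers share something, not from the design. A replicate block gave 2948 genes for S14 and 6567 for LPS at 18 h, 1863 for S14 and 6563 for LPS at 3 h, and changed 1 member call, Mmp14 over time in untreated cells (-0.73, adjusted p = 0.0284). Depth limits Fn1, Adamts4 at 18 h and untreated Timp1, which rest on few reads.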
